A study of Mus musculus with 9 samples.

Results

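The 7 PRAME-like genes Pramef17, Pramef8, Pramef12, Pramel4, Pramel5, Pramel6 and Pramel7 were followed by RNA-seq across 3 culture states of the E14 line of mouse embryonic stem cells. They are 7 of 38293 genes in the table of read counts, and 7 of the 50 PRAME family genes found in it by name. They were picked by name with their behaviour in these libraries already known, so their values are a description and no p-value is given for them. There were 3 libraries of each state, all from E14 cells (strain 129/Ola). mESC-2i, labelled naive, were grown without serum in N2B27 medium with LIF, the MEK inhibitor PD0325901 and the GSK3 inhibitor CHIR99021. Their 3 titles, and no others, also carry LT, which the labels do not explain. mESC-ser, labelled primed, were grown on gelatin in medium with foetal bovine serum and LIF. EpiLC (epiblast-like cells) were made from naive cells on fibronectin in N2B27 with activin A, bFGF and KSR (a serum replacement), without LIF in the stated medium. All 9 libraries come from this single line, and the replicate numbers are labelled biological, without a statement of what was repeated.

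PRAME proteins are built of leucine-rich repeats, and several members of the family are known to act as substrate receptors of CUL2 ubiquitin ligases, which mark other proteins for breakdown. The family has expanded by local duplication in the mouse, mostly in germline and early embryonic tissue, so that many members are near-identical copies. Pramel7 is known from the inner cell mass and from naive stem cells, where its protein brings CUL2 to UHRF1, the factor that guides the maintenance methyltransferase DNMT1 to replicated DNA, and where its expression depends on LIF and STAT3. Pramel6 is its neighbour and is also known from naive cells. Pramef12 is known for its need in sperm formation.

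Total counts ranged from 7187576 to 16829549 per library. The lowest total was in mESC-2i replicate 1 and the highest in mESC-ser replicate 3. The naive markers Nanog, Klf4, Esrrb, Zfp42, Tfcp2l1 and Prdm14 summed to 2874 to 2953 CPM (counts relative to library size, scaled by TMM) in mESC-2i. The sums were 1506 to 1582 CPM in mESC-ser and 88.6 to 102 CPM in EpiLC. The formative markers Fgf5, Otx2, Dnmt3b and Pou3f1 ran the other way, at 71.8 to 82.5, 598 to 712 and 1631 to 1696 CPM. Each list was highest in the state that its name gives. Markers of cells that enter a state like the 2-cell embryo (Zscan4c, Zscan4d, Zscan4f, Zfp352, Tcstv1, Tcstv3 and Usp17la) summed to 0.757 to 1.25 CPM in mESC-2i, where Tcstv1 had no count, to 75.7 to 112 CPM in mESC-ser and to 9.94 to 14.1 CPM in EpiLC. Markers of germ cells and oocytes (Ddx4, Dazl, Zp3, Figla and Nobox) summed to 98.9 to 113 CPM in mESC-2i, against 37.1 to 42.4 CPM with serum and 26.5 to 31.0 CPM in EpiLC. The sum followed Dazl (12.3-fold lower with serum and 8.47-fold lower in EpiLC than in mESC-2i), while Ddx4 was 8.67-fold and 2.28-fold higher and Zp3 was 1.93-fold higher in EpiLC. Trophectoderm markers (Cdx2, Elf5, Gata3 and Krt7) summed to 21.9 to 24.9 CPM in mESC-2i and 11.4 to 12.4 CPM with serum. In EpiLC they summed to 6.28 to 7.59 CPM, and Elf5 had no count. This sum had the order of Pramef17 and Pramel6, as did Cdx2 (6.46-fold lower with serum and 56.1-fold lower in EpiLC than in mESC-2i). Not every gene of the list did. Gata3 was 3.95-fold higher with serum than in mESC-2i, and Krt7 was 1.51-fold higher in EpiLC than with serum. Primitive endoderm markers (Gata4, Gata6, Sox17, Sox7 and Dab2) had their highest sum with serum, as Pramef8 was highest there. The sums were 26.8 to 29.8 CPM with serum, 16.4 to 19.6 CPM in mESC-2i and 6.78 to 8.41 CPM in EpiLC. Gata4 went the other way, 1.39-fold lower with serum than in mESC-2i, while the others were higher. Fibroblast markers (Col1a1, Col1a2, Col3a1, Thy1 and Pdgfrb) summed to 51.7 to 57.9 CPM in mESC-2i, 61.6 to 82.8 CPM with serum and 32.4 to 40.0 CPM in EpiLC. Thy1 was 9.59-fold higher in EpiLC than in mESC-2i, while the other fibroblast markers were lower there. The part of any of these in the levels of the members was not tested. In bulk RNA, fewer cells of a type and less RNA per cell cannot be told apart. The library kit does not mark the strand, and the reads were 50 bases long.

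How far a read can be assigned to 1 member of the family was set by sequence, and the coding sequences show it best. Pramef17 (GRCm38 chr4:143991119-143994369, minus strand) lies on chromosome 4 together with Gm13128 (chr4:144330249-144333465, plus strand), named Pramel30 in RefSeq. Their coding sequences of 1428 bases each were 99.3% identical. The first 120 coding bases of both are shown, 5′ to 3′, in lower case with the only base that differs in capitals. They lie in a single exon each, at chr4:143994250-143994369 on the minus strand for Pramef17 and chr4:144330249-144330368 on the plus strand for Gm13128.
Pramef17: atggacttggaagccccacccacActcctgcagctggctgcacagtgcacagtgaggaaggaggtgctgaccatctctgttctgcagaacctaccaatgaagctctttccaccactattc
Gm13128: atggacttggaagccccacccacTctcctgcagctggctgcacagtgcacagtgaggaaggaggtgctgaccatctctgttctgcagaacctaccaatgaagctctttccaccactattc
Pramel6 (chr2:87506565-87510872, plus strand) and Pramel7 (chr2:87489087-87497093, minus strand) sit side by side on chromosome 2 and are far apart in sequence, with coding sequences 59.0% identical over the aligned bases. The same part of both is shown, with the 53 of 120 bases that differ in capitals, from coding base 14 of Pramel6 (chr2:87508471-87508590) and coding base 11 of Pramel7 (chr2:87492289-87492408).
Pramel6: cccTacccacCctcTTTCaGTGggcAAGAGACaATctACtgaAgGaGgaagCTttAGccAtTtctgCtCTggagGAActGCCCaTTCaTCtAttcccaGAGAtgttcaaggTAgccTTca
Pramel7: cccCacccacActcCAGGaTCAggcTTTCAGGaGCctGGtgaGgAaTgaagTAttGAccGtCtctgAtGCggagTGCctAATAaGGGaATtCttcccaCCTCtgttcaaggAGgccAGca

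Every stretch of 50 bases in the GENCODE transcripts of a gene was looked up in the transcripts of all other genes, on both strands. For Pramef12, Pramef8 and Pramel6 no window recurred (0 of 2572, 0 of 4269 and 0 of 2126). Only exact matches in transcripts were looked up. Near matches and the genome outside these transcripts were not searched, so unique placement of a read is not shown. For Pramel7 1.43% of windows recurred. For Pramef17 73.5% recurred (1252 of 1704), all in Gm13128 and in no other gene. For Pramel5 25.9% recurred, and for Pramel4 87.4%, of which the closest gene, Gm13102, accounted for 85.0% of the windows. How reads with several alignments were counted is not given in the sources used here. The counts of Pramef17 and Gm13128 are thus uncertain as a split between 2 copies. Those of Pramef12, Pramef8, Pramel6 and Pramel7 rest on sequence with no exact match in other transcripts, or nearly none. Pramef12 also has an antisense gene, Pramef12os (2 to 27 counts per library), whose exons overlap none of its own.

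**Figure D1:**
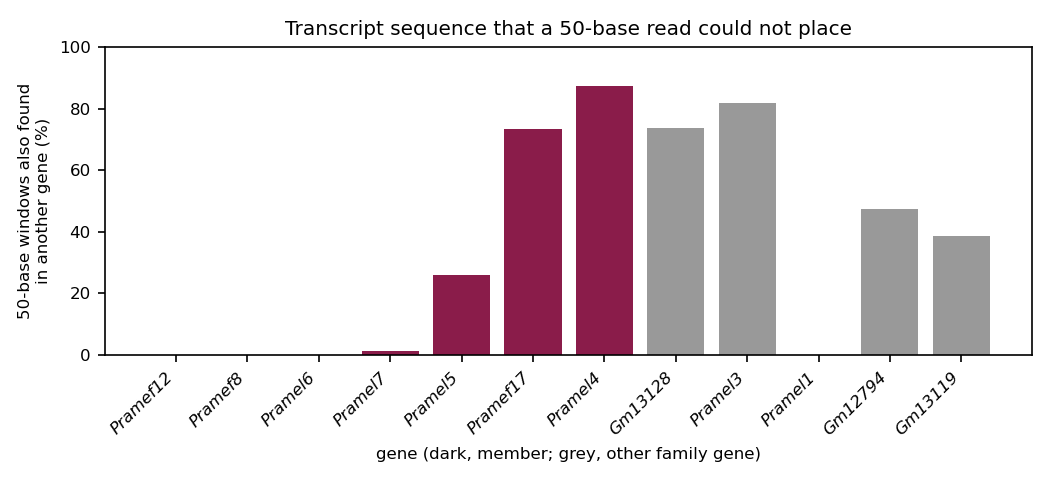
The bars give, for each gene on the x axis, the percentage (y axis) of 50-base windows of its GENCODE M21 transcripts that also occur in a transcript of another gene. Pramef12, Pramef8 and Pramel6 are at 0%, Pramel7 is at 1.43%, Pramef17 at 73.5% and Pramel4 at 87.4%.

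The bases before the RefSeq starts were compared because Pramef17, Pramel6 and Pramel7 shared a loss of counts in EpiLC and Pramef12 did not. RefSeq windows of GRCm38.p6 were matched for 6 of the 7 members (Pramef8 was not matched). The 250 bases before the start are shown for these 4 genes, 5′ to 3′ on the strand of the gene, with every CG pair in capitals. They are Pramef17 (chr4:143994370-143994619, minus strand), Pramel7 (chr2:87492419-87492668, minus strand), Pramel6 (chr2:87506315-87506564, plus strand) and Pramef12 (chr4:144408465-144408714, minus strand). For Pramef17 and Pramel7 the RefSeq start is the start codon itself. Their windows hold the bases before the coding sequence and need not hold the place where transcription starts. The Pramel7 window lies inside the GENCODE gene, whose 5′ end is at chr2:87497093. What is given below for Pramel7 is thus of sequence within the gene.
Pramef17: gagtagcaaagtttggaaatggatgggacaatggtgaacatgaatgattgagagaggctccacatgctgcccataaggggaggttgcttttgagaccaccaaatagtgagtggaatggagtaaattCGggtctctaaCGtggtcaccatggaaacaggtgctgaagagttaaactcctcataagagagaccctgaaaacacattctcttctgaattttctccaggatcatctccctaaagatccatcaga
Pramel7: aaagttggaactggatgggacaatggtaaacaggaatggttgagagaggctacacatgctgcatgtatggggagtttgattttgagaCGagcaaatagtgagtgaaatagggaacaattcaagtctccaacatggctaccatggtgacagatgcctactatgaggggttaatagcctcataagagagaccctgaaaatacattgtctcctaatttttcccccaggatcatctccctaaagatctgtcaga
Pramel6: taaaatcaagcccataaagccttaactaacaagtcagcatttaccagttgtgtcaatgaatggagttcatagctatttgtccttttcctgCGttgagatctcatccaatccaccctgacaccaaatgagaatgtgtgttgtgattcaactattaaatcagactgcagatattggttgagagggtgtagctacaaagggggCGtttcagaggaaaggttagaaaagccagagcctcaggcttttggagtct
Pramef12: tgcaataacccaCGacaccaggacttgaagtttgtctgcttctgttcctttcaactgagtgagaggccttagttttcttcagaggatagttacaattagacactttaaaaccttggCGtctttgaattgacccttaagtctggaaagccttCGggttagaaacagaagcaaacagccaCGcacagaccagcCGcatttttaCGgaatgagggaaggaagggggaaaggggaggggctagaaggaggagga
Over the whole windows of 300 bases, with 50 bases after the start included, Pramef17 and Pramel7 were 75.2% identical although they lie on different chromosomes, and Pramef17 and Gm13128 were 97.3% identical. Pramel6 was 41.3% identical to Pramel7 and 44.7% to Pramef17. Of the other pairs of members, Pramel4 and Pramel5 were 83.4% identical and the rest 41.3% to 49.1%, these included. CG pairs were few, with 2 in the window of Pramef17, 1 in Pramel7, 3 in Pramel6, 2 in Pramel4, 0 in Pramel5 and 7 in Pramef12. The median over all 32851 RefSeq windows was 7, and over 36 windows of other family genes 1. By this count Pramef12 stood at the median of all genes and the other 5 below it.

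These windows were also searched on both strands for the letters of 7 motifs, none of which contains another. The motifs were TTCNNNGAA (STAT), TCAAGGTCA (ESRRB), ATGCAAAT (octamer), CCACACCC (KLF), CTTTGAT (TCF/LEF), CACGTG (E-box) and TATAAA (the core promoter box). None was found in any of the 6 member windows. They were in 8.30%, 0.423%, 1.74%, 3.56%, 3.73%, 7.15% and 13.6% of all windows, in that order. Of the 36 windows of other family genes, 16 held the KLF letters, 11 the TCF/LEF letters and 15 those of the core promoter box, and the other 4 motifs were in 0. This says only that the letters are not in these windows.

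Pramef12 (chr4:144391674-144408464, minus strand, protein-coding) was the most abundant member in all 3 states by counts and by exonic length. In mESC-2i its place above Pramef17 rests on how shared reads were counted, as given below. Pramef12 had 611, 959 and 885 counts in mESC-2i replicates 1, 2 and 3, 559, 394 and 566 counts in mESC-ser, and 314, 374 and 335 counts in EpiLC. Scaled for library size and exonic length, its level was 29.4 ± 2.11 RPKM (mean ± SD, n = 3) in mESC-2i, 13.5 ± 1.30 RPKM in mESC-ser and 16.2 ± 0.250 RPKM in EpiLC. Every mESC-2i library lay above every library of the other states, and the EpiLC libraries lay within a narrow range just above those of mESC-ser. The log2 fold change was -1.15 (SE 0.11) in mESC-ser against mESC-2i, -0.86 (SE 0.09) in EpiLC against mESC-2i and 0.33 (SE 0.10) in EpiLC against mESC-ser. The last did not pass the fold threshold and became -0.01 when libraries were scaled by total counts, a change of scale that moved the median of all genes by -0.34.

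Pramef8 (chr4:143412426-143421091, plus strand, protein-coding) was the only member above the floor with its highest level in serum. Its counts were 364, 294 and 425 in mESC-ser, against 89, 102 and 117 in mESC-2i and 75, 115 and 91 in EpiLC. This gave 2.31 ± 0.339 RPKM in mESC-2i, 5.91 ± 0.0826 RPKM in mESC-ser and 2.71 ± 0.308 RPKM in EpiLC. The serum libraries stood apart from all 6 others, while mESC-2i and EpiLC overlapped. The log2 fold change was 1.34 (SE 0.14) in mESC-ser against mESC-2i and -1.05 (SE 0.12) in EpiLC against mESC-ser. Against mESC-2i, EpiLC differed by 0.25 (SE 0.16), which was not called and was -0.09 with total counts as the scale. The 2-cell-like markers were also highest in mESC-ser, and their part in the level of Pramef8 was not tested.

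Pramef17 fell the most of the members from mESC-2i to mESC-ser. It had 147, 230 and 237 counts in mESC-2i, 17, 13 and 12 in mESC-ser and 0 in each EpiLC library. Its level was 10.7 ± 0.201 RPKM in mESC-2i and 0.560 ± 0.146 RPKM in mESC-ser, with no overlap. The mESC-ser level was 19.1-fold lower than in mESC-2i (log2 fold change -4.30, SE 0.20). The EpiLC level was at least 51.1-fold lower than in mESC-2i, where 3 counts per library were taken as the most that a count of 0 allows (counting error only). The near copy Gm13128 had 166, 254 and 310 counts in mESC-2i, 24, 19 and 19 in mESC-ser and 0 in each EpiLC library. The ratio of Pramef17 to Gm13128 counts was 0.765 to 0.906 in mESC-2i and 0.632 to 0.708 in mESC-ser, so both rows held a like number of reads wherever either was detected. With the counts of both genes added together, mESC-ser against mESC-2i gave a log2 fold change of -4.12 (SE 0.18).

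Pramel6 followed the order of Pramef17 at a lower level. Its counts were 39, 63 and 67 in mESC-2i, 11, 11 and 17 in mESC-ser and 0 in each EpiLC library. This gave 2.47 ± 0.0933 RPKM in mESC-2i and 0.424 ± 0.0546 RPKM in mESC-ser, with no overlap. The difference was 5.82-fold (log2 fold change -2.55, SE 0.22). EpiLC were at least 14-fold lower than mESC-2i and at least 2.40-fold lower than mESC-ser.

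Pramel7, the member best known from naive cells, was low in both stem cell states and not detected in EpiLC. Its counts were 10, 13 and 22 in mESC-2i, 16, 10 and 12 in mESC-ser and 0 in each EpiLC library. The level was 0.636 ± 0.156 RPKM in mESC-2i and 0.410 ± 0.0978 RPKM in mESC-ser, and the libraries of these 2 states overlapped. The log2 fold change was -0.68 (SE 0.32), which was not called at this depth. EpiLC were at least 3.69-fold lower than mESC-2i and at least 2.38-fold lower than mESC-ser. Although Pramel6 and Pramel7 are neighbours, the fall from mESC-2i to mESC-ser was 5.82-fold in the first and 1.55-fold in the second, a difference that was not tested.

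Pramel4 and Pramel5 were near 0 throughout. Pramel4 (chr4:144059126-144069327, plus strand) had 2 counts in the whole series, 1 each in mESC-ser replicates 2 and 3. Pramel5 (chr4:144270633-144280488, minus strand) had 3 counts in mESC-ser replicate 1, and 1 and 2 counts in EpiLC replicates 2 and 3. Every group was at 3 counts or fewer per library, so no fold is given. For Pramel4, with most of its windows shared, reads placed elsewhere cannot be told apart from absent ones.

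**Figure D2:**
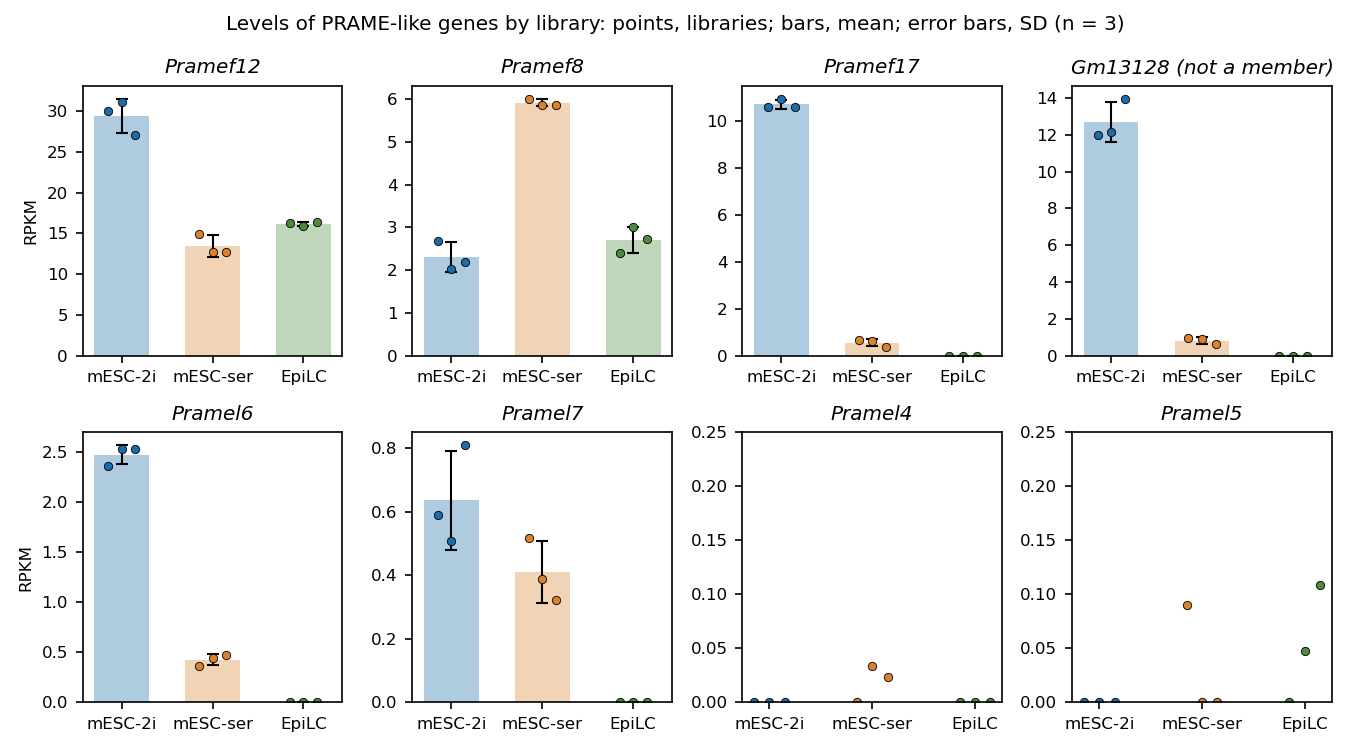
Each panel gives the level of a gene in RPKM (y axis, its own range from 0) in the 3 states (x axis), with points for libraries, bars for the mean and error bars for the SD (n = 3, no bars for Pramel4 and Pramel5). Pramef12, Pramef17, Gm13128, Pramel6 and Pramel7 are highest in mESC-2i, Pramef8 is highest in mESC-ser at 5.91 RPKM, and 5 of the 8 genes (Pramef17, Gm13128, Pramel4, Pramel6 and Pramel7) have no count in EpiLC.

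The order of levels changed between states. In mESC-2i it was Pramef12 (29.4 RPKM), Pramef17 (10.7), Pramel6 (2.47), Pramef8 (2.31) and Pramel7 (0.636), with Pramel6 and Pramef8 within their spread of each other. In mESC-ser it was Pramef12 (13.5 RPKM), Pramef8 (5.91), Pramef17 (0.560), Pramel6 (0.424) and Pramel7 (0.410), and the last 3 lay within their spread. In EpiLC only Pramef12 (16.2 RPKM) and Pramef8 (2.71 RPKM) stood above the floor. If only reads unique to a gene had been counted, the length to divide by would be the 452 windows of Pramef17 found nowhere else, and its level in mESC-2i would be 41.6 ± 0.778 against 29.4 ± 2.11 for Pramef12 on the same scale. The order of the top 2 in mESC-2i therefore rests on how shared reads were counted. The other orders named here are the same on that scale, except that Pramef17 in mESC-ser (2.17 ± 0.565) moves away from Pramel6 and Pramel7.

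Counted by a Benjamini-Hochberg adjusted p under 0.05 in edgeR's quasi-likelihood test over all genes and an absolute log2 fold change over 0.5, 4 of the 5 members that passed the filter on low counts differed between mESC-ser and mESC-2i, 1 higher (Pramef8) and 3 lower (Pramef17, Pramel6, Pramef12). Of all 15728 genes tested, 56.2% were called, 25.9% higher and 30.3% lower. The libraries of these groups did not overlap for 4 of the 5 members and for 70.6% of all tested genes. The median log2 fold change of the 5 was -1.15, beside -0.04 over all tested genes. Between EpiLC and mESC-2i 4 of 5 were called, all lower, against 69.8% of 15378 genes in either direction and 37.8% lower, and 4 of 5 did not overlap where 81.8% of genes did not. Their median was -1.88 with the 3 genes at the floor set to their bound, beside -0.11 over all tested genes. Between EpiLC and mESC-ser only Pramef8 and Pramef12 passed the filter, since the others had 10 to 17 counts per mESC-ser library. Of these 2, Pramef8 was called, lower, against 73.3% of 15345 genes in either direction and 37.8% lower. By adjusted p alone both were called, against 84.2% of genes, and neither overlapped, as held for 85.7% of genes. Leaving out any EpiLC replicate let 5 members pass the filter and 4 be called, all lower, beside 11183 to 11439 of 15694 to 15742 genes called. A count in every mESC-2i library and none in EpiLC was found for 3 of the 7 (Pramef17, Pramel6, Pramel7) and for 2.38% of the 25109 genes with a count anywhere. The comparisons share libraries of each state with one another, the members were picked with these contrasts known, and nothing is read from their counts. Pramel4 and Pramel5 passed no filter.

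**Figure D3:**
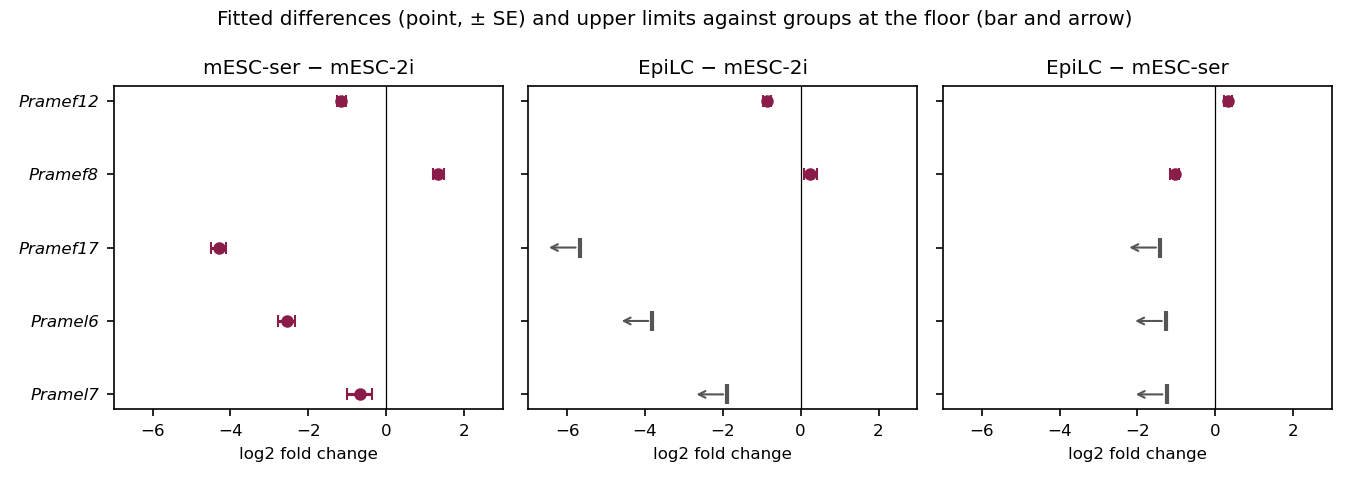
The x axis gives the log2 fold change of each member (y axis) in the 3 comparisons, each panel titled by the states in the order first minus second. Points with bars are fitted values ± SE, and a bar with an arrow marks the upper limit against a group at the floor, as for Pramef17, at least 51.1-fold lower in EpiLC than in mESC-2i.

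The 43 other family genes showed how the rest of the family behaved. Of these, 13 had no count in any library, among them Oog1, Oog2, Oog3 and Oog4, which are known from oocytes. A total of 16 of the 43 had a count in every mESC-ser library and none in any mESC-2i library, 8 on chromosome 4 and 8 on chromosome 5. The same held for 1.08% of all 38293 genes in the table, and for 1.65% of the 25109 with a count anywhere. The counts were small, at most 55 per library (Gm12794 in mESC-ser replicate 3). Of the 50 family genes, 9 to 13 had a count in a mESC-2i library, 29 to 32 in a mESC-ser library and 16 to 19 in an EpiLC library. The mESC-ser libraries were deeper on average than the others, at 11334906 to 16829549 counts, and the part of depth in these numbers was not tested. The chromosome 5 genes of this group share 83.1% to 100% of their windows with other genes and those of chromosome 4 share 13.4% to 63.5%, so their counts are uncertain as a split between copies. The 2-cell-like markers, 7 genes of which 6 or all had counts in each state, moved in the same order across the states (at most 1.25 CPM in mESC-2i, at least 75.7 CPM in mESC-ser), and their part in this was not tested.

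Only 5 of these 43 genes had enough counts to be tested in at least 1 comparison, namely Gm12794, Pramel1, Gm13119, Gm13128 and Pramel3. They passed the filter on low counts through the state where they were high, so their values are given without p-values. Gm12794 (RefSeq Pramel19) had 47, 34 and 55 counts in mESC-ser, 5, 3 and 6 in EpiLC and 0 in every mESC-2i library. Its serum level was at least 10.7-fold above that of mESC-2i, and the log2 fold change in EpiLC against mESC-ser was -2.35. Of its windows 47.3% recur, mostly in Gm12800 (27 to 43 counts in mESC-ser libraries and 0 in mESC-2i), so the split between these 2 is uncertain. Pramel1, known from testis, had 63, 46 and 68 counts in mESC-ser, 3, 3 and 8 in mESC-2i, and 2, 1 and 0 in EpiLC. Its log2 fold change in mESC-ser against mESC-2i was 3.18 (SE 0.31). None of its 50-base windows recurred in another gene. Its window of 300 bases around the start held 20 CG pairs, 18 of them before the start. This was more than in any of the 6 members with such a window. Gm13119 (RefSeq Pramel31) had 0 counts in mESC-2i and 18, 20 and 38 in mESC-ser, at least 5.89-fold higher, with 38.6% of its windows recurring in other genes.

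The other family genes with a naive pattern were fewer. Gm13128, like Pramef17, was lower in mESC-ser (its log2 fold change was -3.98) and was at least 60.2-fold lower in EpiLC than in mESC-2i. Pramel3 on chromosome X had 52, 53 and 74 counts in mESC-2i, against 5, 3 and 3 with serum and 1, 0 and 2 in EpiLC. Its log2 fold change in mESC-ser was -4.44, and it was at least 15.2-fold lower in EpiLC than in mESC-2i. As 81.8% of its windows recur, mostly in Gm15023 (81, 75 and 110 counts in mESC-2i, 5, 8 and 2 in mESC-ser), the split between these 2 is uncertain too. Pramef20, named after its values were seen, had 6, 3 and 5 counts in mESC-2i and 0 in all other libraries.

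**Figure D4:**
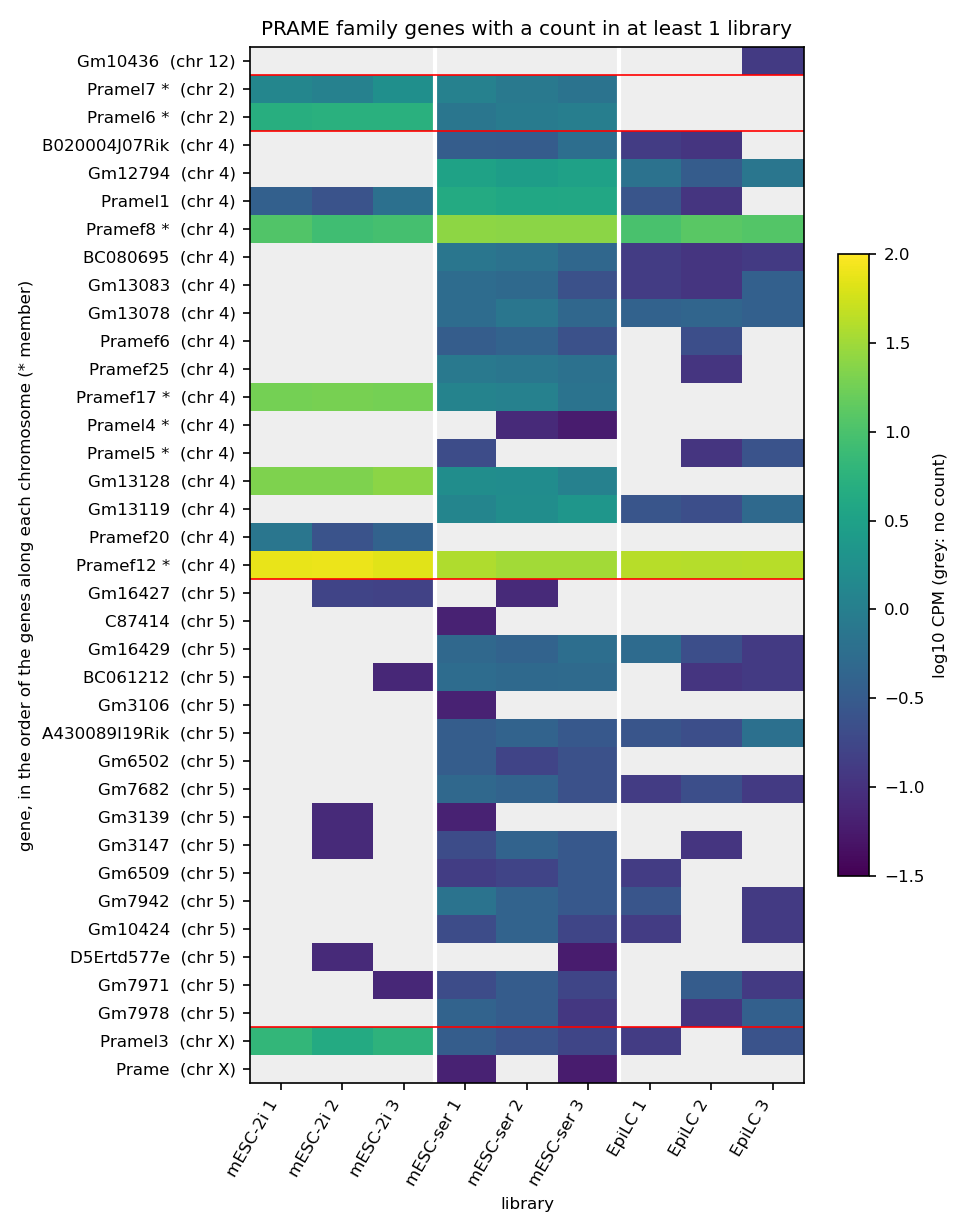
Each row is a family gene with a count in at least 1 library, ordered along each chromosome (red lines part chromosomes, members carry a star), each column is a library, and colour gives log10 CPM with grey for no count. Pramef17, Gm13128, Pramel6, Pramel7 and Pramel3 fade from mESC-2i to EpiLC, while 16 other genes of chromosomes 4 and 5 have counts in every mESC-ser library and none in mESC-2i.

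Summed over all 50 genes, the family held 139 ± 3.16 CPM in mESC-2i, 79.7 ± 4.99 with serum and 56.7 ± 1.29 in EpiLC (mean ± SD, n = 3), and no libraries of different states overlapped. The 7 members took 79.2% ± 2.21, 78.0% ± 0.583 and 93.6% ± 0.979 of these counts. Pramef12 alone took 54.2% ± 2.87, 43.4% ± 1.54 and 73.4% ± 1.81 in the same order. Pramef17 and Gm13128 together took 29.4% ± 1.97, 3.03% ± 0.588 and 0%. Their sum does not depend on how shared reads were split between them. It does depend on whether such reads were dropped or counted in both genes, which is not known. The family total and the other shares rest on this too. The genes with no count in any mESC-2i library took 13.4% ± 0.309 in mESC-ser and 5.50% ± 1.15 in EpiLC.

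For the 3 members with a mean of at least 100 counts in some state, the genes most alike over the 9 libraries were sought among genes of that abundance, by the root mean square difference of log2 CPM after each gene was centred. Genes with clone names were left out for all 3. For Pramef12 they were Fuca1, a lysosomal fucosidase (0.0521), Tsc22d1, a transcription regulator (0.0668) and Dnpep, an aspartyl aminopeptidase (0.0852). For Pramef8 they were Stk4, a Hippo pathway kinase (0.119), Naa25, a subunit of an N-terminal acetyltransferase (0.123) and Reep3, a protein of the endoplasmic reticulum (0.136). For Pramef17 they were Myom2, a muscle structural protein (0.329), Serpinb1a, a protease inhibitor (0.338) and Spic, an ETS family transcription factor (0.428). Gm13128, left out by its name, was closer to Pramef17 (0.211). On the same measure Pramel6 differed from Pramef17 by 0.870 and Pramel7 from Pramef17 by 1.70. Pramel6 and Pramel7 were under the limit of 100 counts in every state. The prior count of 2 in log2 CPM shrinks a fall to 0 more at low counts. These 2 distances thus depend on abundance as well as on pattern.

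The protein partners of the family were measured alongside. Of the 6 core genes of the CUL2 ligase (Cul2, Elob, Eloc, Rbx1, Nedd8, Cand1) 1 was called in mESC-ser against mESC-2i, Cand1, which exchanges receptors on the ligase (log2 fold change 0.62, edgeR adjusted p = 0.000223), where 56.2% of all tested genes were called. The call of Cand1 was lost with offsets for gene length and GC content, where its log2 fold change was 0.19. Elob was called, lower, with scaling by upper quartile (-0.53) or total counts (-0.54). The same held for Elob without mESC-2i replicate 3 (-0.61) or mESC-ser replicate 1 (-0.50). Rbx1 was called, lower, with length and GC offsets (-0.53). In EpiLC against mESC-2i 4 of 6 were called, all higher, the adaptors Elob (2.07) and Eloc (2.05), the RING subunit Rbx1 (1.54) and the modifier Nedd8 (2.2, edgeR adjusted p = 1.16e-07), where 69.8% of all tested genes were called. Cand1 was also called there, lower, with total counts as the scale (-0.73). Cul2 itself, the scaffold, differed by 0.45 (adjusted p = 0.0249) in mESC-ser against mESC-2i and by 0.04 (adjusted p = 0.756) in EpiLC against mESC-2i, and was not called in edgeR in either. It passed the fold threshold without mESC-ser replicate 3 (0.62) or without mESC-2i replicate 1 (0.54). The median log2 fold change of the core was 0.00 and 1.80 in these comparisons, beside -0.04 and -0.11 over all tested genes.

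Of 11 genes of other CUL2 receptors, which compete for the same scaffold, 6 were higher and 1 lower in mESC-ser against mESC-2i, beside 56.2% of all tested genes called. The lower was Vhl, the receptor for hypoxia-inducible factors, at -1.16 (edgeR adjusted p = 0.00013), and among the higher Zyg11b, which reads N-terminal glycine, changed by 0.92 (adjusted p = 3.55e-05). The calls of Fem1b, Zyg11b and Appbp2 were lost with length and GC offsets, at 0.25, 0.41 and 0.49. Fem1b also lost it without mESC-2i replicate 2 or 3 (0.48 each) and with scaling by upper quartile (0.47) or total counts (0.46). In EpiLC against mESC-2i 3 were higher (Klhdc2, Klhdc3, Klhdc10) and 3 lower (Vhl, Lrr1, Fem1b), beside 69.8% of all tested genes called, with Vhl at -1.47 (edgeR adjusted p = 5.81e-06). There the call of Klhdc2 was lost with total counts as the scale (0.42) and that of Fem1b with length and GC offsets (-0.47). On the scale of total counts Zyg11b (-0.60) and Appbp2 (-0.54) were called, both lower. Receptor genes as a list had a median log2 fold change of 0.50 and 0.02 in these comparisons.

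Uhrf1, the target of PRAMEL7 protein, was at 423 to 442 CPM in mESC-2i, 439 to 451 CPM in EpiLC and 296 to 362 CPM in mESC-ser. Its log2 fold change was -0.46 in mESC-ser against mESC-2i (edgeR adjusted p = 0.0026), under the fold threshold but past it without mESC-ser replicate 3 (-0.53) or scaled by total counts (-0.51), and 0.04 in EpiLC against mESC-2i (adjusted p = 0.709). Dnmt1 changed by 0.52 in mESC-ser against mESC-2i (edgeR adjusted p = 0.00383), just past the threshold. It was under it when libraries were scaled by total counts (0.48) or upper quartile (0.49), and with length and GC offsets (0.45). The same held without mESC-2i replicate 1 (0.50), mESC-2i replicate 2 (0.45) or mESC-ser replicate 3 (0.43). In EpiLC against mESC-2i Dnmt1 changed by -1.09 (edgeR adjusted p = 3.37e-06). Usp7, which protects UHRF1 from breakdown, changed by 0.76 in mESC-ser and -0.77 in EpiLC against mESC-2i (edgeR adjusted p = 0.000179 and 4.96e-05), and both calls were lost with length and GC offsets (0.39 and -0.30). These are RNA levels, and protein was not measured here.

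LIF receptor and STAT3 act ahead of Pramel7 in stem cells. All 5 (Lifr, Il6st, Jak1, Stat3, Socs3) were lower in EpiLC than in mESC-2i, as were 37.8% of all tested genes, with Socs3, the feedback inhibitor and STAT3 target, at -5.11 and Stat3 at -3.78 (edgeR adjusted p = 8.25e-10 and 2.37e-09). Between mESC-ser and mESC-2i 1 of 5 was called, against 56.2% of all tested genes, the receptor Lifr at 0.68 (edgeR adjusted p = 0.000863), a call that was lost with length and GC offsets (0.13). Socs3 differed there by -0.23 (edgeR adjusted p = 0.0661). The part of LIF pathway genes in the levels of Pramel7 was not tested, and EpiLC medium also differs in activin A, bFGF, KSR and the inhibitors.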

How the data were processed

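Poly-A RNA of 9 samples was sequenced as single-end reads of 50 bases. Per the labels and methods, the authors trimmed reads with Trim Galore (0.6.6), aligned them to mm10 with HISAT2 (2.2.1) and counted them per gene with featureCounts (Subread 2.0.1). The deposited values are raw counts per Ensembl gene. The sources used here do not give the annotation release, the strand setting or how multiply aligned reads were counted. Columns were assigned by name, with SL taken as short for the SerumLIF of the titles.

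Symbols and positions came from GENCODE M21 (36429 of 38293 genes matched). Family genes were the symbols Prame, Pramel, Pramef and Oog and genes with such a RefSeq name. Each pair of states was fitted over all genes with edgeR (4.0.16, R 4.3.3), with filterByExpr, TMM scaling and the quasi-likelihood test. Calls required a log2 fold change beyond 0.5 in either direction and an adjusted p (Benjamini-Hochberg) below 0.05. Standard errors came from the F statistic. RPKM is TMM-scaled CPM over all 9 libraries divided by exonic length. A group with 3 counts or fewer in every library was at the floor. The members, the gene lists, the tests and the alternatives were chosen with earlier results of these data known. The named genes were the members, tested family genes, the CUL2, UHRF1 and LIF lists, the markers and the 3 most alike genes. Chi-square values per degree of freedom were 1.66 to 30.5 between replicates of a state, so no pair agreed within sampling noise, and p-values measure the spread between these libraries.

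Whether replicate numbers pair libraries was checked by correlating deviations of log2 CPM (prior count 2) from the state means across genes. Same-numbered libraries of mESC-ser and mESC-2i correlated at 0.155, 0.214 and 0.374, and differently numbered ones at -0.308 to 0.159. The 0.159 was that of mESC-ser replicate 1 with mESC-2i replicate 2, so a pairing of these states is possible but uncertain. The main fits did not use the replicate numbers. Same-numbered libraries of EpiLC and mESC-2i correlated at 0.0174 to 0.112, and differently numbered ones at -0.109 to 0.0132. For EpiLC and mESC-ser these ranges were 0.0158 to 0.0313 and -0.0345 to 0.0107. The same-numbered values of EpiLC were small but above every differently numbered one, so a pairing is possible there too. Alternatives tried were scaling by RLE, upper quartile or total counts, other filters and thresholds, DESeq2 (1.42.0), a joint fit of all 9 libraries, a replicate block, splines of length and GC content (5 degrees of freedom) as offsets, leaving out each replicate and, chosen after seeing the data, levels per unshared window and Pramef17 with Gm13128 summed. The fit was also run on simulated data, in which few genes were changed and none of them at low counts. That setting differs from these data, so it does not show how the fit performs on them.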

Additional observations from a re-analysis of the deposited data

How the results depend on the processing

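The calls of the members between mESC-ser and mESC-2i (4) and their directions were the same under every alternative run. With replicate number as a block, a possible pairing of these 2 states, 8953 genes were called against 8843 without it, and 4 members. The block changed no other count of calls by over 1.5 times. Same-numbered correlations of EpiLC libraries with the others were weaker but above all differently numbered ones, so a pairing is possible there too. For EpiLC the block gave 10759 calls against mESC-2i and 11207 against mESC-ser. Scaling by total counts moved the median of all genes by -0.34 in both EpiLC comparisons and by -0.05 in mESC-ser against mESC-2i. On that scale the levels were 11.8 RPKM for Pramef17, 2.71 for Pramel6 and 32.3 for Pramef12 in mESC-2i, 6.18 for Pramef8 in mESC-ser, and 2.35 for Pramef8 and 14 for Pramef12 in EpiLC. Divided by the windows found in no other gene, a choice made after seeing the data, levels were 41.6 and 2.17 for Pramef17 in mESC-2i and mESC-ser, 5.78 for Pramef8 and 0.141 for Pramel4 in mESC-ser.

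The filter on low counts decided which family genes were tested. Without it 22 of 29 other family genes differed between mESC-2i and mESC-ser (19 higher with serum), beside 10226 of all 24480 genes. Between EpiLC and mESC-2i 9 of 26 differed, beside 12476 of 23820 genes. Between EpiLC and mESC-ser 11 of 29 did, beside 13007 of 24272 genes, and 4 of 7 members were called there, all lower. With at least 10 counts in every library these became 1, 0 and 0 other family genes, and 1 member in EpiLC against mESC-2i. Genes at 0 in a state are then not tested, and no other family gene was tested in the EpiLC comparisons. Of all genes, 7309 of 13660, 8385 of 12668 and 9210 of 12963 were called with this filter, in the same order. Counted by adjusted p alone, 2 members were called in EpiLC against mESC-ser (Pramef8 lower, Pramef12 higher), beside 84.2% of all tested genes. Leaving out each replicate in turn gave 1 to 4 members in EpiLC against mESC-ser, beside 11183 to 11446 of all genes. Of the 20 CUL2 ligase and UHRF1 genes, 10 differed between mESC-2i and mESC-ser, beside 8843 of all 15728 genes. By adjusted p alone 18 did, beside 10430 genes, and with an absolute log2 fold change over 1 only 1 did, beside 4935. With length and GC offsets 6 did, beside 8256 of 15534 genes, and the cause was not tested. With the threshold of 1, 7 of the 20 differed between EpiLC and mESC-2i, beside 7455 of 15378 genes. Between EpiLC and mESC-ser 9 did, beside 7957 of 15345 genes. Without molecular identifiers the floors describe counting error alone, and the counts of Pramel7 (10 to 22 where detected) limit what its folds can show.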
